A study of Homo sapiens with 8 samples.

Results

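Aminoacyl-tRNA synthetases join each amino acid to its tRNA, and 39 genes of this machinery were followed here: 20 cytosolic enzymes or enzyme subunits, 16 mitochondrial enzymes, whose symbols end in 2, and 3 scaffold proteins of the cytosolic synthetase complex (AIMP1, AIMP2 and EEF1E1). They were taken by gene symbol from a list, with no threshold on their values. The list was chosen with earlier results of these data known. All 39 were found among the 58302 genes of both deposited tables. The tables use older symbols, so that AARS stands for AARS1 and WARS for WARS1. The cells were MOLM-13, an established human acute myeloid leukaemia line, with a short hairpin RNA against circMYBL2, a circular RNA of the MYBL2 gene (sh-circMYBL2), or a control hairpin (sh-NC). The study measured ribosome footprints, which are the RNA fragments that ribosomes protect, and the input RNA of cells with each hairpin, in 8 libraries or 2 for each hairpin and assay. The series title asks about translation of mutant FLT3. The sample titles give all sh-circMYBL2 libraries a single hairpin name, but their footprint columns are headed cricMY1 and cricMY2. Whether these numbers mark replicates or hairpins is not stated. The labels do not say whether replicates are separate cultures, so p-values measure the spread between these libraries, which may be technical.

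Most of these enzymes activate a single amino acid with ATP and transfer it to the matching tRNAs, and the charged tRNA then carries it to the ribosome. Enzymes of class I and class II have unrelated catalytic domains. In animal cells 8 of the cytosolic enzymes sit with the 3 scaffold proteins in the multi-tRNA synthetase complex, whereas mitochondria use a separate set of nuclear-encoded enzymes that are imported. KARS and GARS serve both compartments. Many cytosolic synthetase genes are known targets of ATF4, a transcription factor that is made when amino acids are scarce or the endoplasmic reticulum is stressed and that binds C/EBP-ATF response elements near their start sites.

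Each RNA library had between 13503757 and 14602293 reads on genes, and the synthetase genes had between 33 and 7946 reads each in a library. Footprint libraries were far shallower and uneven: 222838 and 715040 reads on genes with sh-circMYBL2, against 80148 and 300373 with sh-NC, of which 125760 and 584172 against 33708 and 88695 lay on protein-coding genes. MicroRNA genes held 32.8% and 12.2% of footprint reads with sh-circMYBL2 and 42.7% and 57.2% with sh-NC. The sh-NC footprint libraries resembled each other less than the sh-circMYBL2 ones (correlation of log2 values across genes of 0.575 against 0.804), while both pairs of RNA libraries reached 0.983. Of 8 genes of myelomonocytic leukaemia, 7 were at 1 FPKM or more in every RNA library, and the 8 summed to 915 to 957 FPKM with sh-circMYBL2, against 735 to 773 FPKM with sh-NC. Of these, FLT3 (log2 change 0.40, adjusted p = 0.0232) and ITGAM (0.65, adjusted p = 0.0228) were called higher in RNA by limma and none was called lower; their part in the synthetase results was not tested. Markers of erythroid and adherent cells (4 genes each) were below 1 FPKM throughout, as were 3 of 4 lymphoid markers. The summed erythroid markers reached 0.0863 FPKM with sh-circMYBL2 and 0 with sh-NC, the lymphoid ones 0.544 FPKM with sh-circMYBL2 and 1.07 FPKM with sh-NC, and the adherent ones 0.397 FPKM with sh-circMYBL2 and 0.455 FPKM with sh-NC.

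Input RNA of 10 of the 20 cytosolic synthetase genes fell in sh-circMYBL2 cells (WARS, GARS, AARS, MARS, IARS, CARS, SARS, YARS, NARS and TARS). QARS alone rose, and 9 did not pass the test. Of the 14 mitochondrial enzymes with enough RNA to be tested none passed, and of the scaffolds EEF1E1 fell. The test was limma on log2(FPKM + 1) for the 12489 genes with a mean of at least 1 FPKM, two-sided, with Benjamini-Hochberg adjustment over all of them and a threshold of 0.05. It called 8.88% of all genes tested, 3.96% lower and 4.92% higher. In bulk RNA, fewer cells with a transcript and less of it per cell cannot be told apart. The median log2 change was -0.20 over the cytosolic genes, -0.01 over the mitochondrial ones and -0.00 over all genes tested. Changes are on the log2(FPKM + 1) scale, which understates those of low genes.

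WARS, the tryptophan enzyme, stood at 19.3 and 19.2 FPKM in the sh-circMYBL2 libraries, against 35.0 and 37.5 FPKM in the sh-NC libraries. Its level with sh-circMYBL2 was 53.1% of that with sh-NC, the lowest share among the 39 genes, and the groups lay far apart (log2 change -0.88, SE 0.05, adjusted p = 0.00972). The gene (ENSG00000140105) lies on chromosome 14 at 100333790 to 100376327 of GRCh38, and its product is also known to be induced by interferon-gamma.

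GARS, the glycine enzyme on chromosome 7, had 40.4 and 40.1 FPKM with sh-circMYBL2, against 64.2 and 68.0 FPKM with sh-NC (log2 change -0.70, SE 0.04, adjusted p = 0.0104). AARS, the alanine enzyme on chromosome 16, had 24.8 and 24.7 FPKM, against 39.3 and 39.8 FPKM with sh-NC, the smallest adjusted p of the family (0.00830; log2 change -0.65, SE 0.03). The sh-circMYBL2 level was 60.9% of the sh-NC level for GARS and 62.6% for AARS, and in both genes the libraries of a hairpin lay close together. MARS, the methionine enzyme that also charges the initiator tRNA, had 13.2 and 12.95 FPKM with sh-circMYBL2, against 19.6 and 20.6 FPKM with sh-NC (log2 change -0.59, SE 0.04, adjusted p = 0.0117). The annotated MARS gene overlaps DDIT3, a stress factor whose own RNA was at 3.64 and 2.83 FPKM against 10.4 and 10.4 FPKM with sh-NC. Since the strand setting of the counting is not given in the sources used here, reads of such overlapping genes are not separated with certainty.

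IARS, which charges isoleucine, had 48.5 and 49.2 FPKM in sh-circMYBL2 cells, against 70.2 and 72.4 FPKM in sh-NC cells (log2 change -0.54, SE 0.03, adjusted p = 0.0109). CARS, for cysteine, had 5.17 and 5.15 FPKM, against 7.94 and 7.68 FPKM with sh-NC (log2 change -0.52, SE 0.05, adjusted p = 0.0187), and was among the least abundant of the cytosolic genes. These 2 genes differ widely in level and stood at 68.6% (IARS) and 66.0% (CARS) of the sh-NC level. SARS, for serine, had 34.1 and 35.6 FPKM with sh-circMYBL2, against 47.5 and 47.9 FPKM with sh-NC (log2 change -0.44, SE 0.04, adjusted p = 0.0144). YARS, for tyrosine, had 13.4 and 14.1 FPKM, against 18.4 and 19.7 FPKM with sh-NC (log2 change -0.44, SE 0.05, adjusted p = 0.0264). YARS overlaps S100PBP in the annotation.

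The smallest of the called decreases were in the most abundant genes of the family. NARS, the asparagine enzyme, had 80.3 and 77.9 FPKM with sh-circMYBL2, against 104 and 101 FPKM with sh-NC (log2 change -0.37, SE 0.04, adjusted p = 0.0182). TARS, the threonine enzyme, had 69.2 and 68.3 FPKM with sh-circMYBL2, against 78.6 and 80.7 FPKM with sh-NC (log2 change -0.21, SE 0.03, adjusted p = 0.0379). In each of the 10 genes that fell, both sh-circMYBL2 libraries lay below both sh-NC libraries. Such separation alone is common here, as 30.7% of all genes tested lay wholly lower and 30% wholly higher, and among the 20 cytosolic genes 14 lay wholly lower, 5 wholly higher and 1 overlapped.

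QARS, the glutamine enzyme of the complex, moved the other way. It had 26.7 and 25.6 FPKM in sh-circMYBL2 cells, against 19.4 and 19.3 FPKM in sh-NC cells, or 135% of the sh-NC level (log2 change 0.42, SE 0.04, adjusted p = 0.0176). QARS has no mitochondrial counterpart, because mitochondria make glutaminyl-tRNA by amidation of glutamyl-tRNA. The ratio of QARS to WARS in FPKM was 1.39 and 1.33 with sh-circMYBL2, against 0.554 and 0.515 with sh-NC, so that the order of the 2 genes was turned round between the hairpins.

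The 9 cytosolic genes that did not pass ranged from -0.19 (FARSB) to 0.17 (RARS and KARS) in log2 change. FARSA and FARSB encode the alpha and the beta subunit of the phenylalanine enzyme, which holds equal numbers of both. FARSA had 10.4 and 9.53 FPKM with sh-circMYBL2, against 10.4 and 10.4 FPKM with sh-NC, and FARSB had 17.7 and 17.3 FPKM, against 20.7 and 19.6 FPKM. The FPKM ratio of FARSA to FARSB was 0.589 and 0.550 with sh-circMYBL2 and 0.501 and 0.529 with sh-NC, and neither gene passed the test (adjusted p = 0.616 and 0.0801). HARS, the histidine enzyme, had the lowest mean of the cytosolic genes over the 4 libraries, although CARS was lower with sh-circMYBL2. It had 6.74 and 6.36 FPKM with sh-circMYBL2, against 5.71 and 5.77 FPKM with sh-NC (log2 change 0.16, SE 0.05, adjusted p = 0.151). VARS (-0.11) and DARS (0.10), for valine and aspartate, had adjusted p of 0.383 and 0.306.

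**Figure D1:**
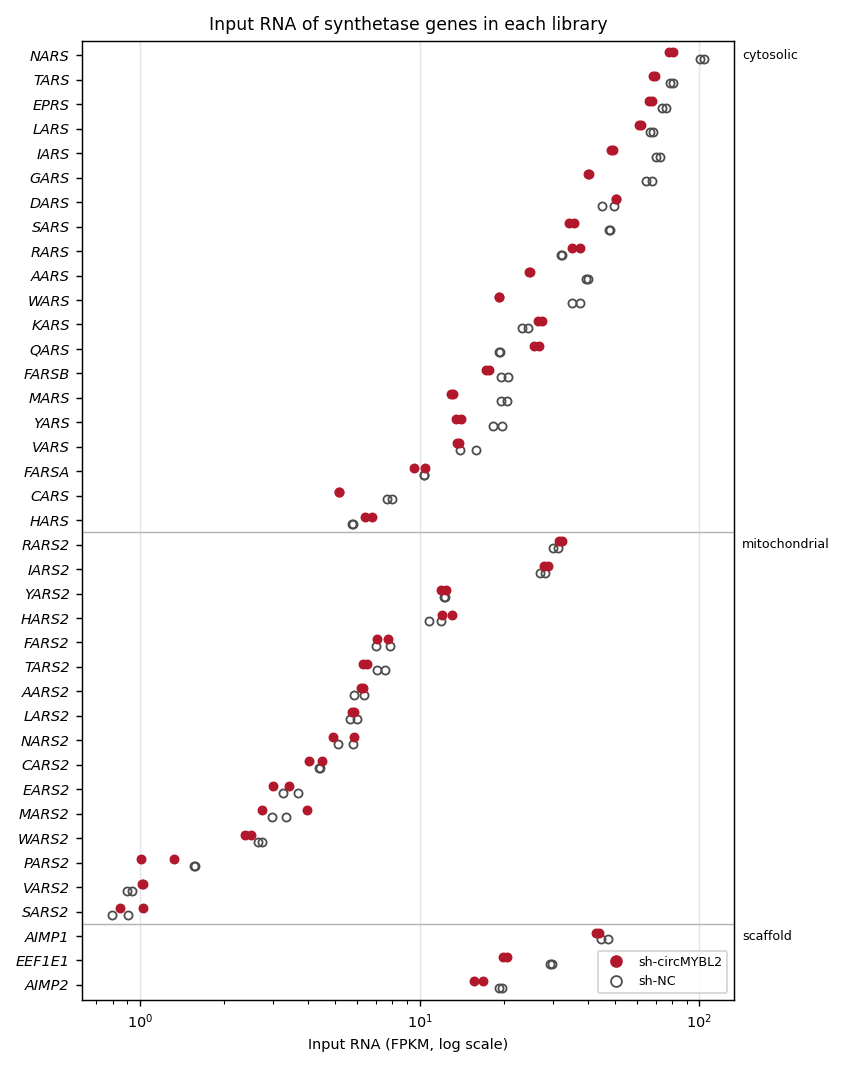
Input RNA in FPKM (log scale) of each of the 39 genes in the 4 RNA libraries, with sh-circMYBL2 as filled red points above sh-NC as open points, in order of mean level within the cytosolic, mitochondrial and scaffold genes. WARS with sh-circMYBL2 sits at 19.3 and 19.2 FPKM, left of 35.0 and 37.5 FPKM with sh-NC, while most mitochondrial genes overlap.

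The decreases followed neither catalytic class. Among class I enzymes 5 of 10 fell and QARS rose, and among class II enzymes 5 of 10 fell and none rose. By place in the cell, 2 of the 8 enzymes of the complex fell (MARS and IARS), 1 rose and the median log2 change was -0.02, while 8 of the 12 cytosolic genes outside the complex fell, none rose and the median was -0.40. The complex members that did not pass were EPRS (-0.16, adjusted p = 0.0720), LARS (-0.13, adjusted p = 0.0797), DARS, RARS and KARS. Enzymes that sit in 1 particle thus had RNA changes of both signs. The difference between the enzymes inside and outside the complex was not tested.

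Of the 12 cytosolic genes often given as ATF4 targets, 10 fell in sh-circMYBL2 cells and none rose, with a median log2 change of -0.48. The other 2, EPRS and LARS, had both sh-circMYBL2 libraries below both sh-NC libraries but did not pass: EPRS, which charges both glutamate and proline, had 67.9 and 65.8 FPKM against 73.6 and 76.1 FPKM with sh-NC, and LARS, the leucine enzyme, had 61.9 and 60.6 FPKM against 66.7 and 68.0 FPKM. Of the 8 other cytosolic genes none fell, QARS rose, and the median was 0.13. The list of targets comes from general knowledge and was drawn up with earlier results of these data known, so its count is a description. Summed over the 12 genes, RNA reads made up 0.350% and 0.348% of protein-coding reads with sh-circMYBL2, against 0.446% and 0.454% with sh-NC. The 8 other cytosolic genes made up 0.101% and 0.0993% with sh-circMYBL2, against 0.0889% and 0.0911% with sh-NC.

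Among the scaffold proteins, EEF1E1 (AIMP3), which binds MARS in the complex, had 20.6 and 19.9 FPKM with sh-circMYBL2, against 29.7 and 29.3 FPKM with sh-NC (log2 change -0.52, SE 0.04, adjusted p = 0.0117). Its FPKM was 68.7% of the sh-NC level, near the 65.0% of MARS. AIMP2, which holds much of the complex together, had 16.8 and 15.6 FPKM against 19.2 and 19.7 FPKM with sh-NC (log2 change -0.25, SE 0.05, adjusted p = 0.0626). AIMP1, the most abundant scaffold, had 42.7 and 43.7 FPKM against 44.7 and 47.3 FPKM with sh-NC (log2 change -0.09, SE 0.04, adjusted p = 0.259). For all 3 scaffolds the sh-circMYBL2 libraries lay below the sh-NC libraries, as for 30.7% of all genes tested, and EEF1E1 alone passed. AIMP1 overlaps TBCK, AIMP2 overlaps EIF2AK1, and processed copies reached 1.93 FPKM for AIMP1 and 1.75 FPKM for EEF1E1, so part of their reads may be shared.

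None of the 14 mitochondrial enzymes tested differed beyond the threshold, with log2 changes from -0.25 to 0.13. VARS2 and SARS2 did not reach a mean of 1 FPKM and were not tested. RARS2, for arginine and the most abundant of them, had 32.2 and 31.6 FPKM with sh-circMYBL2, against 31.3 and 29.98 FPKM with sh-NC. SARS2, for serine and the lowest by its mean, had 0.847 and 1.02 FPKM against 0.907 and 0.796 FPKM. Across the 16 genes, 3 lay wholly lower, 3 wholly higher and 10 overlapped between the hairpins. Of all genes tested 30.7% lay wholly lower and 30% wholly higher. Reads of the 16 genes made up 0.0617% of protein-coding reads in each sh-circMYBL2 library, against 0.0598% and 0.0601% with sh-NC. HARS and HARS2 lie head to head 84 bases apart on chromosome 5, and neither passed the test: HARS2 had 12.01 and 13.03 FPKM with sh-circMYBL2, against 10.8 and 11.97 FPKM with sh-NC (adjusted p = 0.324).

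The 12 calls rest on all 4 RNA libraries together. Leaving out any one of them, sh-circMYBL2 replicate 1 or 2 or sh-NC replicate 1 or 2, left 0 genes called among the synthetases and among all genes, with adjusted p of the 12 between 0.0718 and 0.169 and the same signs. A count test on the reads recovered from the values (limma-voom) called all 12 and 7 more, with EPRS, LARS, FARSB and AIMP2 lower and HARS, KARS and RARS higher; it called 12.5% of all genes lower and 13.7% higher.

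**Figure D2:**
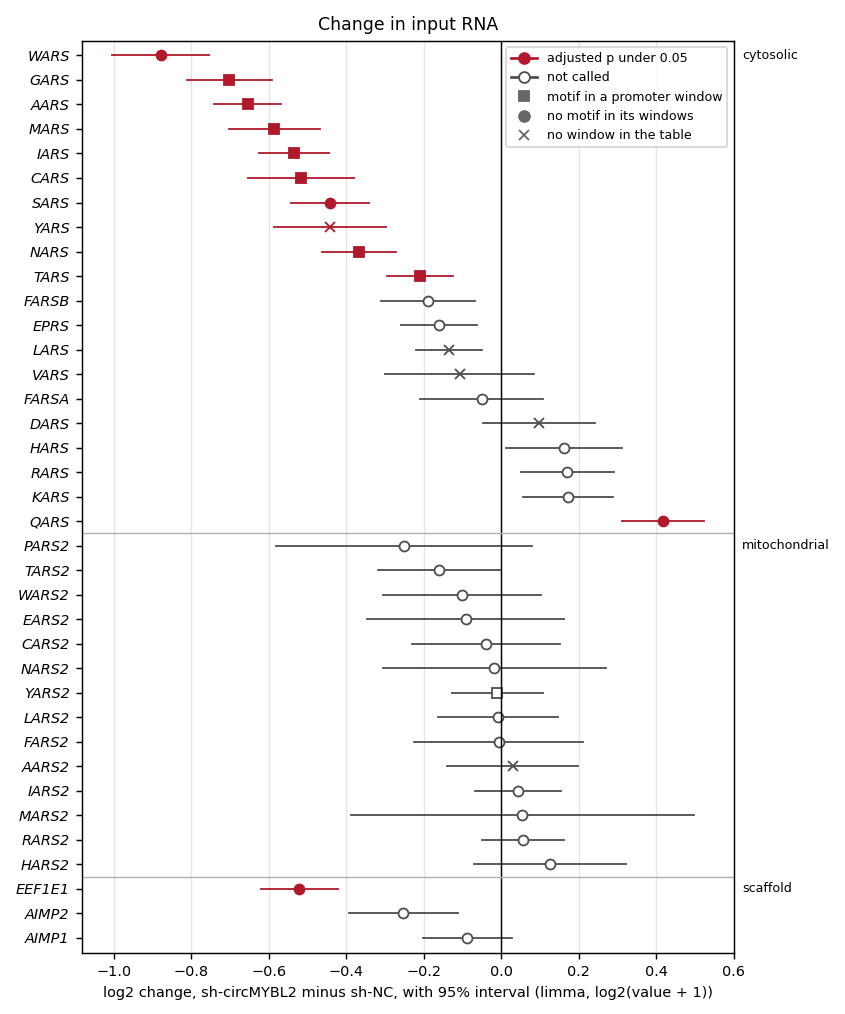
Log2 change of input RNA in sh-circMYBL2 over sh-NC for the 37 genes tested, with 95% intervals from limma; filled red marks passed the adjusted threshold. Squares mark genes with TGATGNAA in a promoter window. The called genes run from WARS at -0.88 to TARS at -0.21 on the left, with QARS at 0.42 on the right, and the mitochondrial genes gather around 0.

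Promoter windows of RefSeq (build GRCh38.p14, 250 bases before to 50 after an annotated start) were searched on both strands for TGATGNAA, the core of the C/EBP-ATF response element. A window was given for 33 of the 39 genes; LARS, VARS, YARS, DARS, VARS2 and AARS2 were without one. The motif was found in 8 genes, and 7 of these are cytosolic enzymes whose RNA fell. They are printed because they mark which of the lower genes hold the motif, 5′ to 3′ on the strand of the gene, with the match in capitals; TTGCATCA and TTTCATCA are matches on the other strand.
AARS: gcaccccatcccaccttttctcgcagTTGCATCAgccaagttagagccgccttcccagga
CARS: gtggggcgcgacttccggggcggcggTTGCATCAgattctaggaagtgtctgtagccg
GARS: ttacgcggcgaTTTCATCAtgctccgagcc
IARS: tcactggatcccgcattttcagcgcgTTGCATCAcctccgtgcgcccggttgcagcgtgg
MARS: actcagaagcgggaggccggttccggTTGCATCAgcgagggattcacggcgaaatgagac
NARS: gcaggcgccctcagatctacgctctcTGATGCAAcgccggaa
TARS: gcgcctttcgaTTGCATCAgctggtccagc
YARS2: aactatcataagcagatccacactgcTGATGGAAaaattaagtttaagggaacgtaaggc

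The stretches lie at chr16:70289660-70289719 (AARS, minus strand), chr11:3057394-3057451 (CARS, minus strand), chr7:30594834-30594863 (GARS, plus strand), chr9:92293677-92293736 (IARS, minus strand), chr12:57488038-57488097 (MARS, plus strand), chr18:57621807-57621848 (NARS, minus strand), chr5:33440956-33440985 (TARS, plus strand) and chr12:32756061-32756120 (YARS2, minus strand). In 6 of the 7 cytosolic genes the match reads TGATGCAA on one strand, and in GARS it reads TGATGAAA. The first base of the match stood close to the start in most of them: at position -2 in CARS, -4 in MARS, -13 in IARS, 3 in TARS and 15 in NARS, counted from the annotated start of that window. It stood at -33 in GARS and at -187 in AARS. In both TARS and GARS it was counted from a downstream annotated start.

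WARS, which fell most, and QARS, which rose, held no match, and the 250 bases before a start of each are given for comparison, from chr14:100376328-100376577 (minus strand) and chr3:49104758-49105007 (minus strand).
WARS: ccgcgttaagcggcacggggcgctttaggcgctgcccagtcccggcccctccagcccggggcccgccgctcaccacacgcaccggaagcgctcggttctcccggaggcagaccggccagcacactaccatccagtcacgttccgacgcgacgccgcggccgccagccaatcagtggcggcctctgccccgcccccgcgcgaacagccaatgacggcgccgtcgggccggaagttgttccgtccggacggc
QARS: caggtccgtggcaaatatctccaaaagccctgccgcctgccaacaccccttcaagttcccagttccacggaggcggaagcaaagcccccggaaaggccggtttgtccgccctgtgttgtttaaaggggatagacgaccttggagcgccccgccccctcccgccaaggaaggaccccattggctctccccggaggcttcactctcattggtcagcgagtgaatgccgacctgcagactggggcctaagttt

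Of the cytosolic genes with a window, 7 of the 9 that fell held the motif, and 0 of the 7 that did not fall. WARS and SARS fell without a match in their windows. Of the mitochondrial enzymes 1 of 14 held it (YARS2, whose RNA was at 11.9 and 12.4 FPKM against 12.3 and 12.2 FPKM with sh-NC), and of the scaffolds 0 of 3, EEF1E1 included. Across the table, 3.62% of 35116 windows held the motif. Among protein-coding genes tested in input RNA and given a window, it was present in 24 of 278 that fell (8.63%), in 11 of 442 that rose (2.49%) and in 160 of 6793 that were not called (2.36%). A match describes these letters only, and its absence says nothing of other stretches.

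Most genes of a wider ATF4 response also fell in RNA. Of 20 genes of the amino acid response, 18 were tested in input RNA, 13 fell in sh-circMYBL2 cells and none rose, with a median log2 change of -0.72. Over all genes tested 3.96% fell and 4.92% rose. TRIB3, a pseudokinase that feeds back on ATF4, had 1.99 and 2.29 FPKM with sh-circMYBL2, against 11.1 and 10.9 FPKM with sh-NC (log2 change -1.94, SE 0.07, adjusted p = 0.00720). ATF5, a related transcription factor, was at 12.5 and 11.9 FPKM against 30.4 and 31.1 FPKM with sh-NC (log2 change -1.27). DDIT4, an inhibitor of mTORC1 signalling, had 17.0 and 16.4 FPKM against 40.5 and 38.2 FPKM with sh-NC (log2 change -1.19), and SLC7A11, the cystine transporter, had 4.36 and 4.73 FPKM against 11.4 and 11.4 FPKM (log2 change -1.17). RNA of ATF4 itself, which is regulated mainly through its translation, was at 36.1 and 35.9 FPKM against 50.5 and 46.3 FPKM with sh-NC (log2 change -0.42, SE 0.05, adjusted p = 0.0284). ATF4 footprints were at 10.8 and 6.79 RPKM with sh-circMYBL2, against 0 and 8.57 RPKM with sh-NC (26 against 4 reads). Their log2 change was 1.63 (limma, adjusted p = 0.634). Of the 14 genes of this list tested in footprints none was called, and the median was 0.69, against 0.56 over all genes tested. The motif was present in 5 of the 18 genes of this list that had a window.

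Other genes of the tRNA pathway mostly stayed within the threshold. Of 19 tested genes of tRNA maturation and export, XPOT, the exporter of tRNA from the nucleus, fell (52.6 and 50.9 FPKM with sh-circMYBL2, against 71.9 and 71.9 FPKM with sh-NC; log2 change -0.47, adjusted p = 0.0117) and POP1, a subunit of RNase P, rose (10.6 and 10.5 FPKM against 8.60 and 8.13 FPKM; log2 change 0.30, adjusted p = 0.0427). None passed among 4 genes of mitochondrial transamidation and formylation: GATC, of the complex that replaces a mitochondrial glutamine enzyme, had a log2 change of -0.15 (adjusted p = 0.229), and MTFMT, which formylates the mitochondrial initiator tRNA, one of -0.15 (adjusted p = 0.301). None passed among 7 genes of editing and selenocysteine insertion, where SECISBP2, which binds selenocysteine insertion elements, had -0.36 (adjusted p = 0.0693) and SEPSECS, which completes selenocysteinyl-tRNA, -0.15 (adjusted p = 0.148). Nor did any of 5 genes of tRNA delivery: EEF1B2, a subunit of the exchange factor of EEF1A, had 0.18 (adjusted p = 0.0503), TUFM, the mitochondrial elongation factor, 0.20 (adjusted p = 0.112) and EEF1A1, which carries charged tRNA to the ribosome, -0.02. Of 20 tested mitochondrial tRNA genes, 4 were called lower and 3 higher. Reads of all 22 mitochondrial tRNA genes, tested or not, summed to 2159 and 2238 with sh-circMYBL2, against 2064 and 1949 with sh-NC.

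Levels per length differed far more between genes than between hairpins. Over the 4 RNA libraries the highest were NARS (mean 90.7 FPKM), TARS (74.2 FPKM), EPRS (70.8 FPKM), LARS (64.3 FPKM) and IARS (60.1 FPKM), and the lowest cytosolic gene was HARS (6.15 FPKM), which lay above CARS with sh-circMYBL2 and below it with sh-NC. The order NARS, TARS, EPRS held in each of the 4 libraries, although their ranges over the libraries overlap, while LARS stood above IARS with sh-circMYBL2 and below it with sh-NC. Of the 13 amino acids with a separate gene for each compartment, the mitochondrial gene was lower in 12, from a ratio of cytosolic to mitochondrial FPKM of 1.09 for arginine to 46.2 for serine, and HARS2 was higher than HARS (ratio 0.514). In footprints the order changed with the hairpin and the library. By group mean the highest with sh-circMYBL2 were IARS (39.9 RPKM), EPRS (29.1 and 48.9 RPKM in the libraries) and IARS2 (35.47 RPKM), and with sh-NC FARSA (48.2 RPKM), IARS (45.4 RPKM) and NARS (34.9 RPKM). TARS led in sh-circMYBL2 library a, EPRS in library b, FARSA in sh-NC replicate 1 and IARS in sh-NC replicate 2. CARS had the lowest mean of the cytosolic genes with each hairpin, 1.83 RPKM with sh-circMYBL2 and 2.15 RPKM with sh-NC. Across the 39 genes the Spearman rho of RNA level and footprint level was 0.785, with 0.844 across the 16 mitochondrial genes and 0.394 across the 20 cytosolic ones. These are descriptions across genes that share the same libraries and counted lengths.

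Footprints per RNA read varied within the family. They are given for each hairpin and compared between genes only, because the footprint libraries differ in depth. Both assays were counted over the same length of each gene, and its coding part was not separated. The part of untranslated sequence in the differences between genes was not tested. With sh-circMYBL2 FARSA had 110 footprint reads per 1000 RNA reads (95% counting interval 86.8 to 138) and VARS 82.9 (71.8 to 95.4), while NARS had 17.0 (14.4 to 19.9) and AIMP1 12.5 (9.30 to 16.4). With sh-NC the 4 genes kept this order, with FARSA at 44.3 (30.1 to 62.95), VARS at 24.2 (18.5 to 31.1), NARS at 4.14 (3.06 to 5.49) and AIMP1 at 1.89 (0.814 to 3.72). The mitochondrial genes PARS2, VARS2, MARS2 and SARS2 stood above FARSA with sh-circMYBL2, at 192, 159, 122 and 116. With sh-NC they stood below it, at 0, 18.6, 7.58 and 0, each from 4 reads or fewer. NARS, first in RNA level in every library, ranked 9 in mean footprint level with sh-circMYBL2 and 3 with sh-NC. The subunits of the phenylalanine enzyme differed in this respect, with FARSB at 44.7 (35.2 to 56.1) with sh-circMYBL2 and 5.86 (2.93 to 10.5) with sh-NC. The ratio of FARSA to FARSB footprints in RPKM was 1.98 and 1.27 with sh-circMYBL2 and 1.73 and 9.69 with sh-NC, the last resting on 3 FARSB reads. Such intervals cover counting error only.

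No synthetase gene passed the test in footprints. All 39 were tested with 9431 genes, none was called among all genes (percentage called 0) by limma at an adjusted p under 0.05, and 5 of the 39 had an unadjusted p under 0.05 (WARS2, NARS2, PARS2, SARS2 and AIMP2, all higher), against 12.9% of all genes tested. The smallest adjusted p among the 39 was 0.323. Leaving out sh-circMYBL2 library a or b gave 3 and 4 calls among the 39, all higher, and 746 and 712 among all genes. The count test on recovered reads called none of the 39, and 0.53% of all genes lower and 0.0636% higher. A 95% interval of a log2 change often spanned several units, for example -3.15 to 5.12 for MARS, which holds changes of the size seen in RNA in either direction. The median log2 change was -0.05 over the cytosolic genes, against 0.56 over all genes tested and -0.01 over the 4438 genes above 0 in all 4 footprint libraries. A single library set the sign of the cytosolic median, which was -0.63 without sh-NC replicate 1, 0.48 without sh-NC replicate 2 and 0.14 without sh-circMYBL2 library a. Over all genes the median was 0.24 without sh-NC replicate 1 and 1.10 without sh-NC replicate 2.

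WARS had 10.3 and 13.1 RPKM in footprints with sh-circMYBL2 (17 and 93 reads), against 19.1 and 18.6 RPKM with sh-NC (10 and 22 reads), and the groups did not overlap (log2 change -0.65, 95% interval -1.91 to 0.61, adjusted p = 0.627). AARS had 13.7 and 13.6 RPKM, between the 8.11 and 22.8 RPKM of the sh-NC libraries. GARS had 25.1 and 26.8 RPKM against 26.3 and 32.4 RPKM with sh-NC, which overlap. QARS had 19.7 and 24.99 RPKM with sh-circMYBL2, against 25.8 and 25.2 RPKM with sh-NC, so its footprints did not lie above those of the control although its RNA did. TARS, by contrast, had 35.1 and 31.4 RPKM against 8.50 and 25.4 RPKM with sh-NC, and EPRS 29.1 and 48.9 RPKM against 17.8 and 28.7 RPKM, both wholly higher. Of the 20 cytosolic genes 4 lay wholly lower (WARS, QARS, DARS and FARSA), 2 wholly higher and 14 overlapped, where 10.9% of all genes tested lay wholly lower and 30.7% wholly higher.

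FARSA had 31.7 and 20.7 RPKM with sh-circMYBL2 (20 and 56 reads), against 49.9 and 46.5 RPKM with sh-NC (10 and 21 reads), a log2 change of -0.88 (95% interval -2.05 to 0.28, adjusted p = 0.529). In RNA the same gene had a log2 change of -0.05. IARS, which ranked between 1 and 3 in each footprint library, had 32.9 and 46.8 RPKM against 29.6 and 61.1 RPKM with sh-NC, with the sh-circMYBL2 libraries inside the range of the sh-NC ones. KARS, for lysine, had 24.7 and 29.2 RPKM against 26.9 and 42.4 RPKM. These levels overlap between the hairpins except for FARSA.

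**Figure D3:**
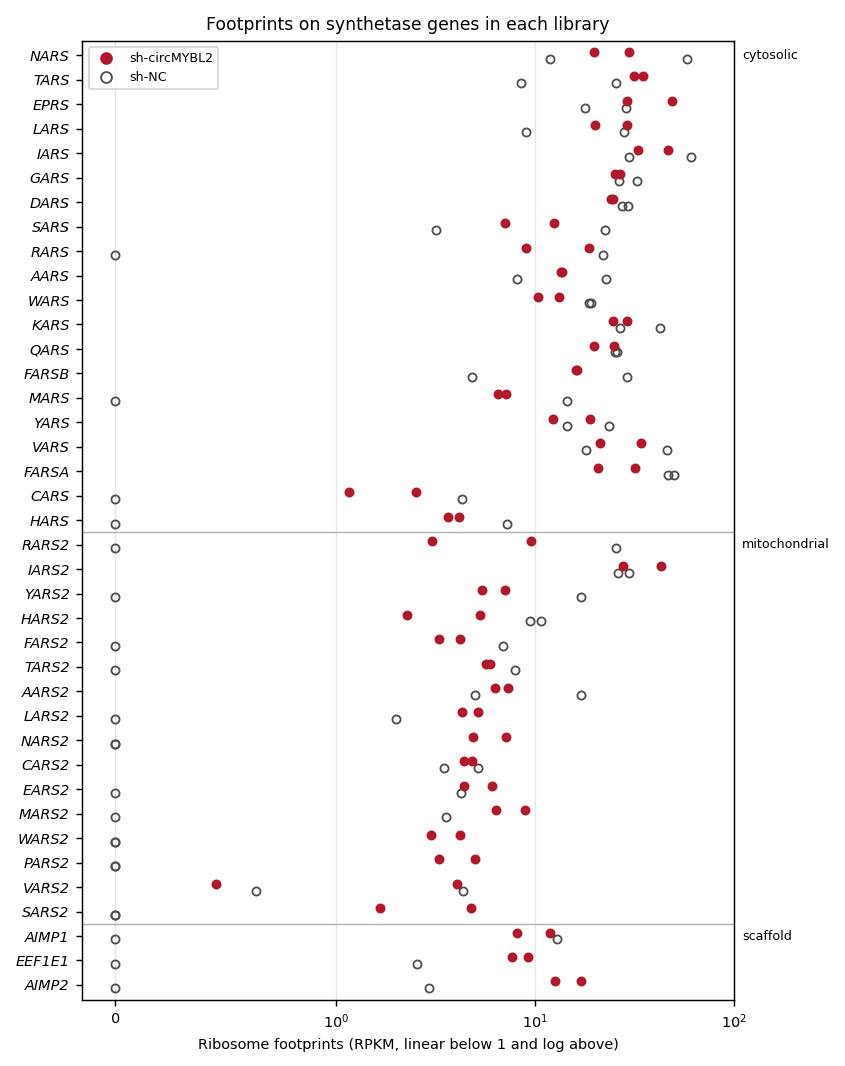
Ribosome footprints in RPKM (linear below 1, log above) of the 39 genes in the 4 footprint libraries, with sh-circMYBL2 as filled red points above sh-NC as open points, in the gene order of the RNA plot. Open points at 0 mark genes without reads in an sh-NC library, 15 in replicate 1 and 7 in replicate 2, and no sh-circMYBL2 point lies at 0.

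Many mitochondrial enzymes had too few footprints in the sh-NC libraries to be followed. Of the 39 genes, 15 had no read in sh-NC replicate 1 and 7 none in replicate 2, while none was at 0 in either sh-circMYBL2 library; the sh-NC libraries had fewer protein-coding reads, and the part of depth in these zeros was not tested. WARS2, NARS2, PARS2 and SARS2 had no read in either sh-NC library. NARS2, for asparagine, had 4.90 and 7.12 RPKM with sh-circMYBL2 from 4 and 25 reads, which is 1.89-fold a floor of 3 reads set for the sh-NC group, and the counting interval of the ratio itself starts at 1.44. WARS2, for tryptophan, had 3.01 and 4.20 RPKM from 3 and 18 reads, 1.37-fold the same floor, with an interval that starts at 1.02. PARS2, for proline, with 15 reads and SARS2 with 10 reads in sh-circMYBL2 would be expected at 2.93 and 1.95 reads in sh-NC at an equal rate, under the floor, and no fold is given. HARS2 went the other way, with 2.27 and 5.27 RPKM from 2 and 20 reads, against 10.7 and 9.48 RPKM from 3 and 6 reads with sh-NC (log2 change -1.29, adjusted p = 0.558). The median log2 change over the 16 mitochondrial genes was 0.98 as fitted and 0.40 with the 4 genes at their floor. It also moved with the pseudocount (2.49 with 0.1 and 0.35 with 5) and with quantile normalization (0.44), and it was 2.08 without sh-NC replicate 2.

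Summed reads are less affected by single zeros. The 16 mitochondrial enzymes had 676 footprint reads with sh-circMYBL2 against 98 with sh-NC. Scaled to the library totals behind the deposited values, this was a ratio of 1.35 (95% counting interval 1.09 to 1.68). Their RNA gave 1.01 (0.984 to 1.03). All such ratios, those of single genes included, use these totals, whereas the shares use protein-coding reads. Ratios and shares therefore need not match. The totals do not follow the reads on genes: 185632 against 300373 in sh-NC replicate 2, and 1113399 against 715040 in sh-circMYBL2 library b. Whether an interval holds 1 can depend on the total used, and other totals were not tested. By library their share of protein-coding footprints was 0.0787% and 0.0988% with sh-circMYBL2 and 0.0860% and 0.0778% with sh-NC, so the groups overlap, and of the sh-circMYBL2 libraries only the deepest lay above both sh-NC libraries. The 20 cytosolic genes gave 0.907 in footprints (0.833 to 0.988) and 0.813 in RNA (0.806 to 0.820). Their shares were 0.414% and 0.437% of protein-coding footprints with sh-circMYBL2 and 0.412% and 0.590% with sh-NC, which overlap as well. The ratio for the 12 reported ATF4 targets was 0.964 in footprints (0.869 to 1.07) and 0.759 in RNA (0.752 to 0.766), with footprint shares of 0.272% and 0.310% against 0.234% and 0.403% with sh-NC. The 8 other cytosolic genes had 0.142% and 0.127% of footprints with sh-circMYBL2, against 0.178% and 0.187% with sh-NC, a ratio of 0.796 (0.688 to 0.925) without overlap, while their RNA ratio was 1.09 (1.07 to 1.11). The spread between libraries is not in these intervals, and with 2 libraries a group the smallest p of an exact permutation test is 0.33.

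**Figure D4:**
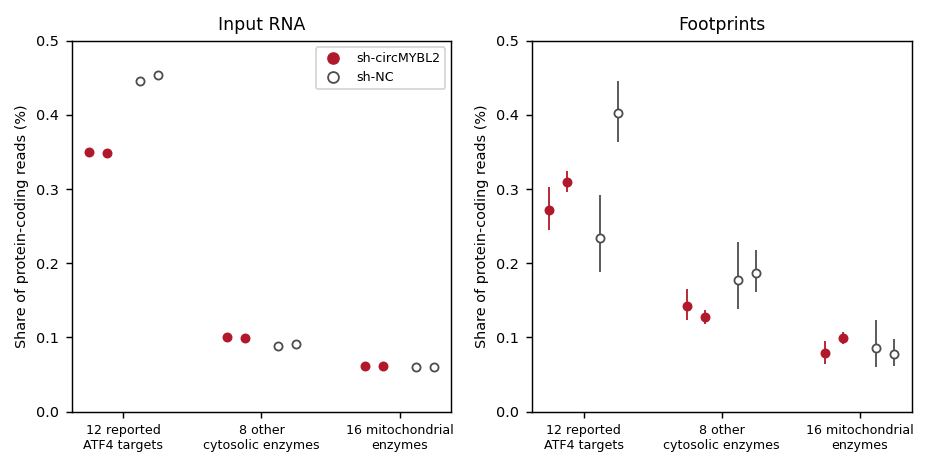
Share of protein-coding reads, in percent, held by the 12 reported ATF4 targets, the 8 other cytosolic genes and the 16 mitochondrial enzymes in each library, with sh-circMYBL2 in filled red to the left of sh-NC in open marks and 95% Wilson intervals for counting error. In RNA the first group sits at 0.350% and 0.348% with sh-circMYBL2, below 0.446% and 0.454% with sh-NC, whereas its footprint shares overlap.

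The scaffolds had few footprints with sh-NC, 10 reads in all, none of them in replicate 1, against 115 reads with sh-circMYBL2. AIMP2 had 12.6 and 17.1 RPKM with sh-circMYBL2 (6 and 35 reads), against 0 and 2.93 RPKM with sh-NC (0 and 1 read), and its log2 change of 2.98 had an adjusted p of 0.330. Its scaled read ratio was 8.0 with a counting interval of 1.36 to 324. EEF1E1, whose RNA fell, had 9.17 and 7.67 RPKM (5 and 18 reads), against 0 and 2.56 RPKM with sh-NC (0 and 1 read), a ratio of 4.49 (0.729 to 185). AIMP1 had 8.12 and 11.9 RPKM against 0 and 12.9 RPKM with sh-NC and overlapped. For all 3 scaffolds together the ratio was 2.24 (1.18 to 4.81), with shares of protein-coding footprints of 0.0143% and 0.0166% with sh-circMYBL2 against 0 and 0.0113% with sh-NC; the 0 allows up to 0.0114% by the Wilson interval.

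**Figure D5:**
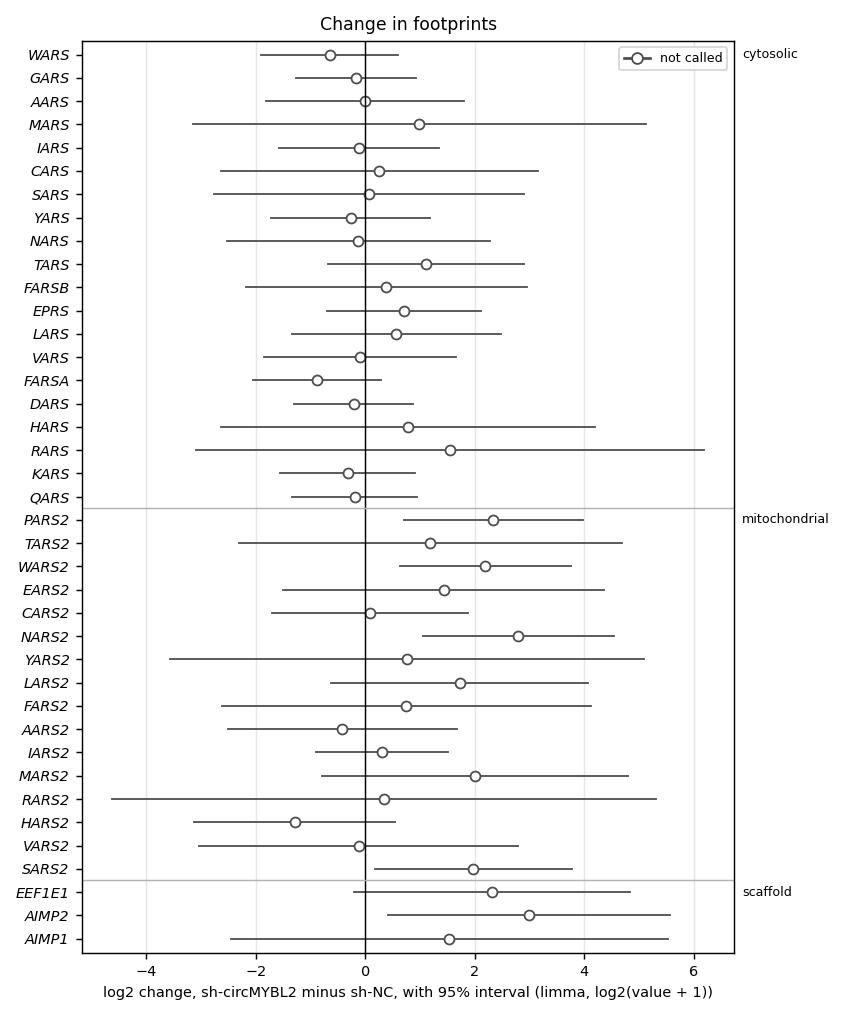
Log2 change of footprints in sh-circMYBL2 over sh-NC for the 39 genes, with 95% intervals from limma, in the order of the RNA changes. No gene passed the adjusted threshold, and intervals such as -3.15 to 5.12 for MARS are several times wider than the RNA changes.

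Translational efficiency (TE), the footprint change that is left once the RNA change is taken off, was tested as an interaction in a limma fit of all 8 libraries over 8260 genes. Of the 37 synthetase genes tested, NARS2 (log2 TE change 2.81, SE 0.43, adjusted p = 0.0303), PARS2 (2.59, SE 0.41, adjusted p = 0.0309) and WARS2 (2.29, SE 0.39, adjusted p = 0.0348) were called higher and none lower, where 5.31% of all genes tested were called, 5.05% higher and 0.266% lower. All 3 are among the mitochondrial genes without a read in either sh-NC footprint library, so these values depend on the pseudocount and are no measure of size. On simulated data of this depth and design, the TE fit recovered almost none of the planted changes. Most of its few calls were genes that had not been changed. The spread between simulated libraries was set by hand, and far fewer genes were called than in the real data. The simulation therefore cannot say how many of the real calls are false. The count test on recovered reads called none of them (adjusted p = 0.0708, 0.133 and 0.0874 for NARS2, PARS2 and WARS2) and called 1.63% of all genes higher and 0.496% lower. Leaving out any of the 4 RNA libraries also ended the calls, while leaving out sh-NC footprint replicate 1 or 2, which leaves a single sh-NC footprint library that is taken to vary like the others, gave 12 and 25 synthetase calls and 3120 and 4953 over all genes. The median log2 TE change over all genes tested was 0.57, and 0.03 over the 4200 genes with reads in all 4 footprint libraries.

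No cytosolic gene was called in TE. Their median log2 TE change was 0.52. Above 0 were 12 of 12 reported ATF4 targets (median 0.59) and 4 of the 8 others (median -0.15). These medians are to be read beside 0.57 for all genes tested and 0.03 for those with reads in all 4 footprint libraries. Of the 20 cytosolic genes, 4 had no read in 1 of the sh-NC footprint libraries. TE takes off the RNA change, so the fall in RNA of the targets itself raises their TE change. The median of the cytosolic genes was -0.23 without sh-NC footprint replicate 1. WARS had a log2 TE change of 0.23 (SE 0.30, adjusted p = 0.739), AARS 0.65 (SE 0.63, adjusted p = 0.654) and GARS 0.54 (SE 0.28, adjusted p = 0.378). QARS had -0.61 (SE 0.30, adjusted p = 0.341) and FARSA -0.83 (SE 0.37, adjusted p = 0.297). Of the scaffolds AIMP2 (3.24, SE 0.90, adjusted p = 0.109) and EEF1E1 (2.84, SE 0.83, adjusted p = 0.124) did not pass. With sh-NC footprint replicate 1 or 2 left out the adjusted p was 0.00521 and 0.000589 for AIMP2 and 0.00356 and 0.000505 for EEF1E1, but each such fit sets sh-circMYBL2 against a single sh-NC library with 1 read or none in the gene, so the change rests on the pseudocount. Among related genes GATC, MTFMT, SEPSECS, TSEN15, POP5, POP7, RPP38 and EEF1B2 were called higher in TE, each without a read in either sh-NC footprint library.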

How the data were processed

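The study measured ribosome footprints and input RNA of MOLM-13 cells with 2 hairpins; groups come from sample titles. Per the labels' protocols, ribosomal RNA was depleted and libraries were made for small RNA, and the submitters' processing notes name cutadapt, Bowtie, HISAT2, featureCounts, DESeq2 and build hg38, without versions or roles. The authors' deposited footprint table holds RPKM values and their deposited input RNA table holds FPKM values, each scaled to gene length and a library total by the authors, so levels also depend on that total. The sh-circMYBL2 footprint columns are headed cricMY1 and cricMY2, while the titles of both samples hold cricMY1. Whether the numbers mark replicates or hairpins is not stated, so these libraries are called a and b where needed.

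The genes, groups and related lists were chosen with earlier results of these data known. Genes were taken by the symbols in the tables. Every gene called in a comparison, the 3 with the smallest p and the most and least abundant of each group are described; in RNA, up to 4 genes of each related list, by smallest p, are named, or 2 where none passed. FARSB, HARS2 and the genes named in the complex and target lists, ATF4, DDIT3, EEF1A1 and the related genes called in TE fall outside that rule and were named after their values were seen.

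Each table was fitted with limma 3.58.1 in R 4.3.3 (eBayes with a mean-variance trend) on log2(value + 1). Genes had to average 1 or more, and p-values were adjusted by Benjamini-Hochberg. TE was the hairpin by assay interaction; it uses 1 variance per gene over both assays (5.75 degrees of freedom against 4.16 for footprints), so its p-values may be too small. The fits were tested on simulated data, with the spread between libraries set by hand and not estimated from these data. The RNA fit recovered most planted changes of 2-fold or more but only a minority of those of 1.5-fold. All synthetase changes in RNA were below 2-fold, so a gene that did not pass may still have changed. The footprint and TE fits recovered almost none of the planted changes, and most of their few calls were false. Read numbers were recovered as whole multiples of a step per library (98.2% to 99.1% of microRNA values came out whole within 0.02 reads) and gave depths, Wilson or Poisson intervals (95%) and the floor of 3 reads. Symbols and promoters were matched through RefSeq tables of GRCh38.p14, the build named hg38. Protein sequences were not used here. Alternatives were pseudocounts 0.1 and 5, no filter, quantile normalization, limma-voom on recovered reads, a replicate block in RNA and leaving out each library.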

Additional observations from a re-analysis of the deposited data

How the results depend on the processing

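The 12 synthetase calls in RNA (of 1109 over all genes) were the same 12 with pseudocounts of 0.1 and 5, and quantile normalization added EPRS. Without a filter on low values 5 remained called (97 over all genes), and voom on recovered reads called 19 (3268 over all genes). With the replicate number as a block in the RNA fit, 0 were called among the synthetases and 0 among all genes; the 12 then had adjusted p of 0.0502 to 0.0954. The numbers were not shown to pair the libraries, since deviations of the libraries numbered 1 correlated at 0.0265 over 12489 genes. No paired analysis was run for footprints and TE, because the numbers of the sh-circMYBL2 footprint columns are not stated to be replicates. Leaving out 1 RNA library gave 0 to 0 calls in both counts. In footprints the 0 calls became 56 with voom over all genes, and leaving out 1 library gave 0 to 746 over all genes and 0 to 4 among the synthetases, the highest without an sh-circMYBL2 library. The 439 TE calls over all genes became 853 with pseudocount 0.1, 2 with pseudocount 5, 0 with quantile normalization and 176 with voom, and the 3 synthetase calls became 0 with pseudocount 5, with quantile normalization and with voom. Leaving out 1 library gave 0 to 4953 TE calls over all genes and 0 to 25 among the synthetases. Leaving out sh-NC footprint replicate 1 or 2 gave 12 and 25 synthetase calls. The cause of these shifts was not tested. The median footprint change of all genes, 0.56, was 0.07 under quantile normalization and 0.20 with voom. With 1 library left out the sign turned for 8 of 37 synthetase genes in RNA (FARSA and 7 mitochondrial), 21 of 39 in footprints (12 cytosolic, 8 mitochondrial and AIMP1) and 20 of 37 in TE. None of these was called with all libraries. Without sh-NC footprint replicate 2, FARSB (-0.61), HARS (-0.91) and YARS2 (-1.31) passed as lower in TE against a single sh-NC footprint library. Footprint changes ranged from -0.99 to 2.97 for MARS. Among genes described above, signs turned for FARSA in RNA (-0.11 to 0.0097 without 1 library, the higher one without sh-circMYBL2 replicate 2), for AARS in footprints (0.0065 with pseudocount 0.1; -0.70 to 0.69 without 1 library), for IARS in footprints (0.10 with quantile normalization; -0.63 to 0.40 without 1 library) and in TE without sh-NC footprint replicate 1 for AARS (-0.042, up to 1.34 without another library) and IARS (-0.091, up to 0.93). The median RNA change of the mitochondrial enzymes was 0.0049 without sh-NC replicate 2. The median cytosolic footprint change was -0.21 with voom, and the mitochondrial one ranged from 0.82 to 2.08 without 1 library. On the depth behind low values, 1 read in a gene of 1 kb was worth 12.2 RPKM in sh-NC replicate 1 and 0.898 RPKM in sh-circMYBL2 library b.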
